A study of Homo sapiens with 8 samples.

Results

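The nuclear genes for subunits of the mitochondrial respiratory chain were examined in HCT-116, an established human cell line from a colorectal carcinoma, across 4 groups of cells. Members were matched by gene name, and the set was chosen with earlier results of these data known. The rule took every non-control probe named for a subunit of complex I (NDUFA, NDUFB, NDUFC, NDUFS and NDUFV names) or complex II (SDHA to SDHD). Names of complex III (UQCR names and CYC1), complex IV (COX5 to COX8 names) and ATP synthase (ATP5 names) were taken likewise. The array held 113 such probes for 85 genes, among 50599 probes that carry 20440 gene names. Of these, 107 probes for 82 genes passed the filter, which asked for a signal well above background on the 2 arrays of some group, and were tested, and 105 had such a signal on every one of the 8 arrays. The 3 genes without a tested probe were COX7A1, COX7B2 and NDUFA4L2. All 85 names matched a current gene record, 20 of them under another symbol, and the names printed are those of the array. 6 genes carry a matching name without being standard subunits (ATP5S, ATP5SL, ATP5L2, UQCRBP1, COX7A2L and NDUFA4L2), and they are described apart.

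WT cells were the untreated parental line, and WT+NU6102 cells were the same line after 24 h in 20 µM NU6102, a purine inhibitor of the cyclin-dependent kinases CDK1 and CDK2. CDK2 KO cells were untreated HCT-116 cells with a disrupted CDK2 gene, obtained from a commercial supplier. R50 cells had become resistant in 50 µM NU6102 and were kept in it, so R50 differs from WT in both history and present exposure. None of the sources used here says whether R50 is 1 clone. Each group had 2 arrays, labelled as replicates, and n = 2 per group holds throughout. The paper states that RNA was prepared in duplicate, without saying whether the duplicates came from separate cultures. RNA of each replicate was labelled with Cy3 and hybridised alone. Both WT and both WT+NU6102 arrays were on 1 slide, and both CDK2 KO and both R50 arrays on another. The comparison of WT+NU6102 with WT therefore lies within a slide, as does that of R50 with CDK2 KO, while for CDK2 KO or R50 against WT slide and group cannot be told apart. In bulk RNA, a change in the mix of cells (such as cell cycle phases) and a change in RNA per cell cannot be told apart.

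CDK2 itself checked the labels. Its level was −0.78 and −0.77 on the WT arrays, −0.46 and −0.43 with NU6102, −1.58 and −1.53 in CDK2 KO and −1.11 and −1.10 in R50, where a level is the log2 signal relative to the array's 75th percentile. CDK2 KO was the lowest group, by 0.78 ± 0.045 (SE) below WT (limma adjusted p = 0.000271), and the probe stayed above background there. Of 10 epithelial markers on the array, 8 had a signal well above background on every array and VIL1 on none. Of 14 markers of blood, endothelial and stromal cells, 6 had such a signal on every array, among them PTPRC and VWF. COL1A2, COL3A1, LUM and PDGFRB were well above background on none. The signals of these 14 markers summed to 1181.0 and 1193.8 intensity units with NU6102 and to between 1309.8 and 1475.7 on the other arrays, while the epithelial markers summed to 380695.3 and 381586.6 in WT, 474996.6 and 475862.4 with NU6102, 433630.9 and 442826.2 in CDK2 KO and 572706.2 and 583876.0 in R50. The part of these shifts in the results below was not tested. The number of spots well above background ran from 32376 to 36206 per array, none was saturated, and the 2 arrays of a group correlated over all tested probes with r between 0.9937 and 0.9958.

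The respiratory chain passes electrons from NADH, through complex I, or from succinate, through complex II, to ubiquinone, then through complex III and cytochrome c to complex IV, where oxygen is reduced. Complexes I, III and IV pump protons across the inner mitochondrial membrane, and ATP synthase uses their return to make ATP. Nuclear genes encode most subunits, and the DNA of the mitochondrion encodes the remainder, so the complexes are built from both. Nuclear subunit genes are commonly expressed together, and binding sites for the transcription factors NRF1, GABPA (of the ETS family) and YY1 are known from many of their promoters.

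Respiratory chain genes moved little in any comparison, and with NU6102 more were higher than lower, by a margin that depends on the scaling. Limma called a probe at a Benjamini-Hochberg adjusted p under 0.05 over all 28677 probes tested. After NU6102, 40 of the 107 member probes (37.4%) were higher than in WT, against 23.6% of all probes tested, and 11 (10.3%) were lower, against 21.1%. In CDK2 KO against WT, 15 (14%) were higher, against 15.8% of all probes, and 10 (9.35%) were lower, against 15.3%. In R50 against WT, 6 (5.61%) were higher, against 9.78%, and 10 (9.35%) were lower, against 12.8%. In R50 against CDK2 KO, 7 (6.54%) were higher, against 15.2%, and 27 (25.2%) were lower, against 19.3%. The shares above the background were therefore those of rises with NU6102 and of falls in R50 against CDK2 KO, and neither excess was tested. Both depend on scaling: with quantile normalization between arrays, 24 member probes were higher and 19 lower with NU6102, 6 and 6 in R50 against WT, and 8 and 17 in R50 against CDK2 KO. Neither excess remained under that scaling: 22.4% of member probes were higher with NU6102, against 22.6% of all probes, and 15.9% were lower in R50 against CDK2 KO, against 17.8%. Fitted on the 4 arrays of 1 slide alone, 26 were higher and 10 lower with NU6102, and 5 higher and 10 lower in R50 against CDK2 KO. Counts also depended on single arrays: without WT+NU6102 replicate 2, 18 were higher with NU6102, and without WT replicate 1, 20. Without CDK2 KO replicate 1, 3 were lower in R50 against CDK2 KO, without CDK2 KO replicate 2, 6, without R50 replicate 1, 8, and without R50 replicate 2, 13.

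**Figure D1:**
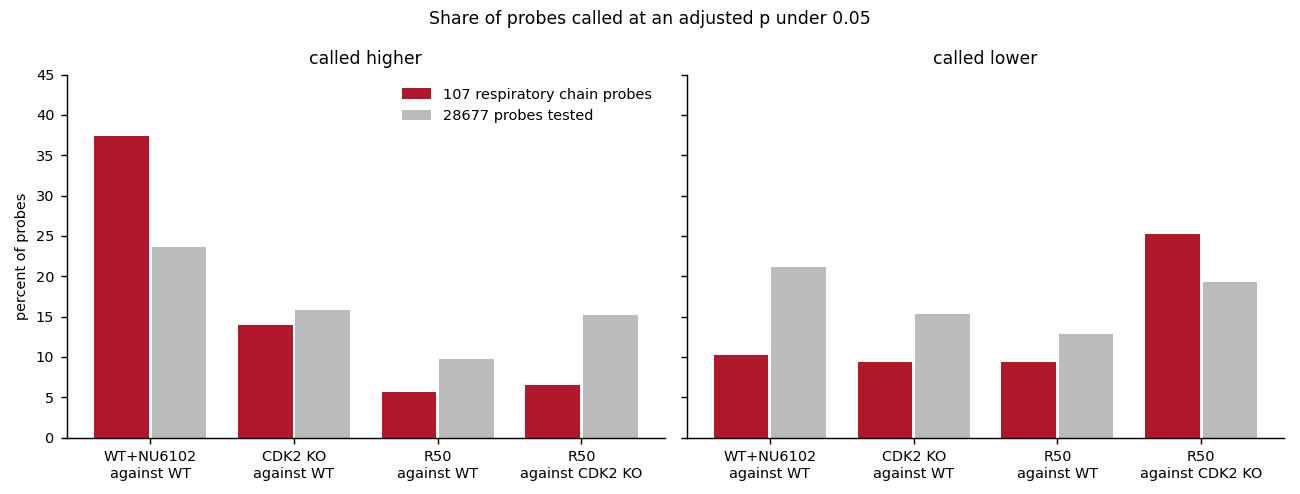
Share of probes called higher (left) and lower (right) in each comparison, in percent, for the 107 respiratory chain probes (red) and all 28677 probes tested (grey). With NU6102, 37.4% of the member probes were higher against 23.6% of all, and in R50 against CDK2 KO 25.2% were lower against 19.3%.

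The changes were small. Calls with a fitted log2 change of at least 1 (2-fold) numbered 1 of 107 member probes with NU6102 (6.49% of all probes tested), 1 in CDK2 KO against WT (4.74%), 0 in R50 against WT (2.59%) and 1 in R50 against CDK2 KO (5.2%). The one with NU6102 is COX8C, which was not well above background in the treated cells and has a bound of only 1.94-fold. The others are ATP5S in CDK2 KO and a dim probe of ATP5E, not well above background in R50, with a bound of 2.26-fold in CDK2 KO over R50. Taking for each gene the probe with the highest mean level, the median log2 change of the 82 genes was 0.11 with NU6102, 0.03 in CDK2 KO and −0.07 in R50 against WT, and −0.10 in R50 against CDK2 KO. The same medians over 15320 named genes were 0.04, 0.02, −0.04 and −0.06. The 95% interval of limma lay within 0.5 log2 units of no change for 64 of 82 member genes with NU6102, against 46.3% of all genes, and for 77, 79 and 76 member genes in the other comparisons in the same order, against 59.6%, 65.5% and 56.3%. The median SE of a member gene's change was 0.0585, against 0.072 for all genes. The set of all genes was not matched to the members for signal. Of all 28677 probes tested, 24489 were well above background on every array, against 105 of the 107 member probes. No call was made in any of the 4 comparisons for 33 member genes, and 1 gene, SDHA, was called in all 4. Of the 33, 5 had a call by another probe: NDUFA10 (2 of 3 probes higher with NU6102, by 0.27 and 0.30), COX5A, COX7A2L, NDUFB5 and SDHC.

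A test of any difference among the 4 groups (moderated F-test, adjusted p under 0.001) passed 10 of 107 member probes, or 9.35%, against 21.1% of all probes tested. They belong to NDUFS3, NDUFS4, NDUFA12 and NDUFB2 of complex I, SDHB of complex II, COX8C of complex IV, ATP5G1 and ATP5G2 of ATP synthase, and ATP5S with both of its probes. The count is unstable: it was 0 without any 1 array, without the filter on dim probes and with a replicate block, and 48 with a trended prior.

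**Figure D2:**
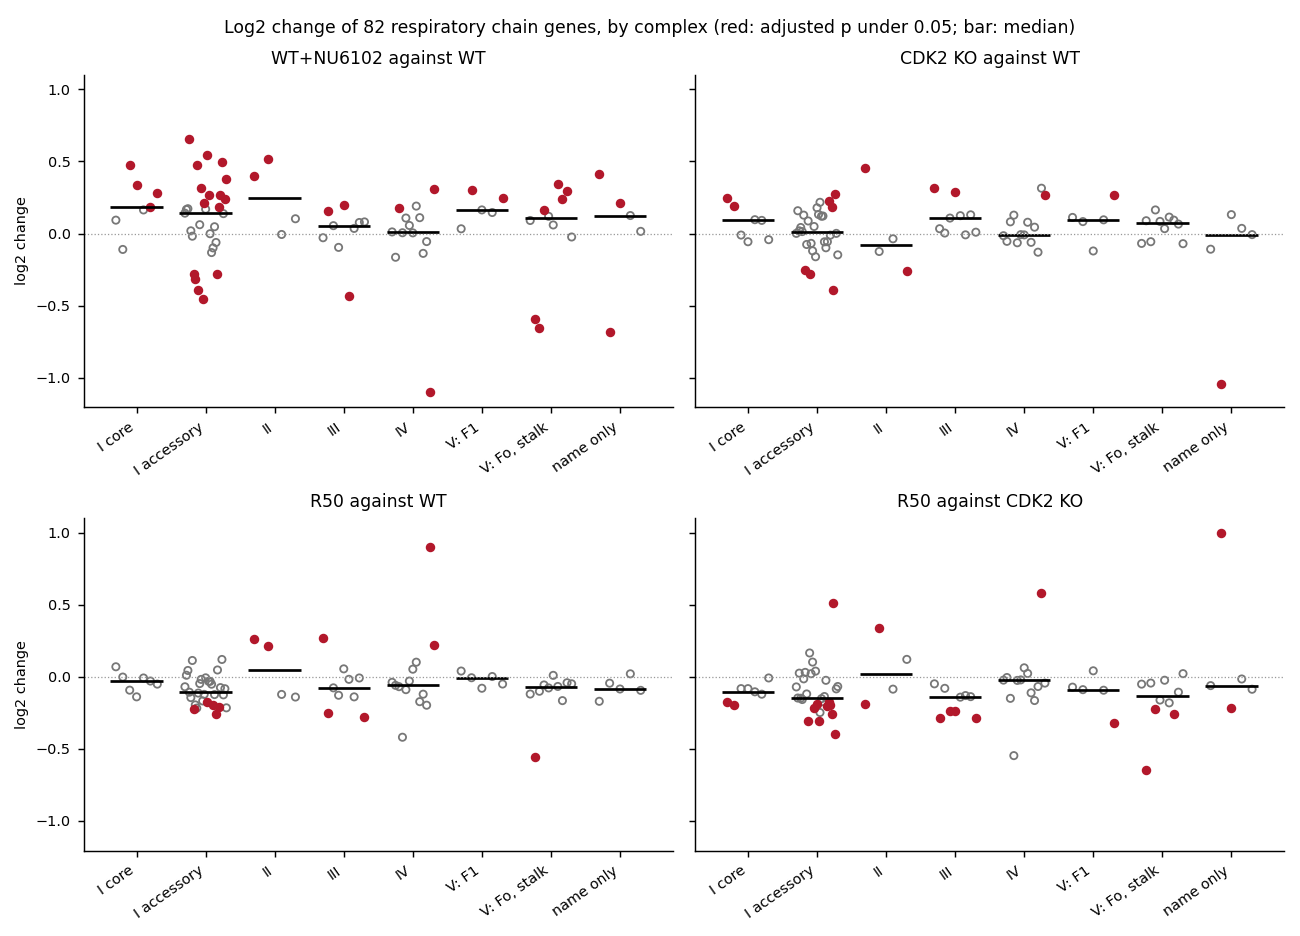
Log2 change of each of the 82 tested member genes (1 probe a gene), grouped by complex along the x axis, in the 4 comparisons. Red points were called at an adjusted p under 0.05, open points were not, and bars are medians. The lowest point for complex IV with NU6102 is COX8C, which was not well above background there, and the outlying points among the genes that only match by name are those of ATP5S.

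On hg19, the build of the positions in the scanner files, the brightest probes of the genes described most lie for SDHA at chr5:256725-256784, for SDHB at chr1:17354342-17355135, for NDUFS3 at chr11:47603979-47605883 and for NDUFS4 at chr5:52942229-52954433. Those that remain lie for NDUFA12 at chr12:95365110-95365169, for ATP5G1 at chr17:46970798-46971772, for ATP5G2 at chr12:54059077-54059136 and for ATP5S at chr14:50790809-50792360. Spans are as the files of the WT and WT+NU6102 arrays give them, some longer than a probe, and no hg19 annotation was used here to place them in exons.

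The windows upstream of a few members are shown: NDUFA12, which had the largest rise with NU6102, ATP5G1 and ATP5G2, which had the largest falls among standard subunits well above background on all arrays, and SDHA, the one member called in all 4 comparisons. Several other members rose more than SDHA, and its window also held the most cores. Sequences are RefSeq's on GRCh38.p14, 5′ to 3′ on the gene's strand, and 68 of the 85 member genes had a window in that table. The letters searched on both strands in the 250 bases before the start site were GCGCNNGCGC (the NRF1 core, which reads the same on both strands), CCGGAAGT (an ETS core) and ATGGCGGC (a YY1 core). The SDHA window held the NRF1 core 4 times, each 49 bases after the one before. At least as many occurred in 29 of all 27305 windows (0.106%). Among the members, ATP5I, NDUFA3, NDUFB4 and UQCR11 held the core 2 times each, and of these NDUFA3 was lower than WT in all 3 other groups while the rest were not called. Since another gene, CCDC127, reaches into this window, only the cores, in capitals, are given with up to 10 bases on either side:
SDHA, core from base −166, chr5:218144-218173, plus strand: ggtccgctttGCGCAGGCGCggcgccccca
SDHA, core from base −117, chr5:218193-218222, plus strand: gtggcatggtGCGCAGGCGCgatgtccccc
SDHA, core from base −68, chr5:218242-218271, plus strand: ccggcgtggtGCGCAGGCGCggtatccccc
SDHA, core from base −19, chr5:218291-218319, plus strand: ccggtgtggtGCGCAGGCGCagtctgcgc

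NDUFA12 held 1 NRF1 core, in capitals. The windows of ATP5G1 and ATP5G2 held none of the 3 cores, which says only that these letters are not in these 250 bases. A non-coding gene, LOC105371814, spans the ATP5G1 window.
NDUFA12, chr12:95003698-95003947, minus strand: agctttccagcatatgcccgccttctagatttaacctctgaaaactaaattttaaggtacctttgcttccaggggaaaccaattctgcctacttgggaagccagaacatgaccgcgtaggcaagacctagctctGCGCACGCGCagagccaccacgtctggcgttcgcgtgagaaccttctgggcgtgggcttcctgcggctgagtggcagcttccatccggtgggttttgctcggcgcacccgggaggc
ATP5G1, chr17:48892537-48892786, plus strand: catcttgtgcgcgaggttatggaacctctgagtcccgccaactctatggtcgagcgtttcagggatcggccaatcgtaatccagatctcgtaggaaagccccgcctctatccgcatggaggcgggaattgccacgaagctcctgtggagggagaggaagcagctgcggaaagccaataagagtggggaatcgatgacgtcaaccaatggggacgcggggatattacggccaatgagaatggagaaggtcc
ATP5G2, chr12:53676084-53676333, minus strand: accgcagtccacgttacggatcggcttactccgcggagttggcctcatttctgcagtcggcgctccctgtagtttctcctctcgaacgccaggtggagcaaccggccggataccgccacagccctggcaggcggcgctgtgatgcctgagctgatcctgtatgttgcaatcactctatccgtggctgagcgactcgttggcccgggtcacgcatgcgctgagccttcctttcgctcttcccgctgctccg

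Over the 68 member windows, the NRF1 core occurred in 15 (22.1%), the ETS core in 9 (13.2%) and the YY1 core in 2 (2.94%). Over all 27305 windows of the table these shares were 7.58%, 3.64% and 1.34%. Of the 15 tested member genes with the NRF1 core, 5 were higher and 2 lower with NU6102, and of the 51 tested without it 19 were higher and 6 lower. All 9 genes with the ETS core (ATP5H, COX5B, COX8A, NDUFA13, NDUFS1, SDHD, UQCR11, UQCRH and UQCRQ) were without a call in that comparison, while of 57 without it 24 were higher and 8 lower. Of all named genes, 28.9% were higher and 24.2% lower with NU6102, and those with the core were not counted apart. NDUFS1, SDHD and UQCRQ were called in other comparisons. These counts are a description and were not tested.

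Complex I accepts electrons from NADH. With NU6102, 4 of its 7 nuclear core subunits rose and none fell, against 28.9% and 24.2% of all named genes. NDUFS3, a subunit of the arm that holds the iron-sulphur clusters, was at 4.16 on both WT arrays and at 4.60 and 4.66 with NU6102, while CDK2 KO (4.16 and 4.14) and R50 (4.06 and 4.08) were at or just under the level of WT. Its rise with NU6102 was 0.47 ± 0.046 (SE, limma adjusted p = 0.000832). The rises of NDUFS7 (0.33 ± 0.055), NDUFV2 (0.28 ± 0.061) and NDUFV1, which binds NADH, (0.19 ± 0.059) were called too, with NDUFV1 close to the threshold (limma adjusted p = 0.0485). NDUFS1 and NDUFS8 were not called with NU6102, at 0.09 ± 0.045 and 0.16 ± 0.071. NDUFS1 rose instead in CDK2 KO, by 0.24 ± 0.045, and was lower in R50 than in CDK2 KO by 0.17. No core subunit was called in R50 against WT, where the 7 changes lay between −0.14 and 0.07.

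Accessory subunits of complex I went both ways with NU6102, with 11 of 29 higher and 5 lower (28.9% and 24.2% of all named genes). NDUFA12, which joins complex I late in its assembly, was at 3.48 and 3.57 in WT, 4.16 and 4.20 with NU6102, 3.63 and 3.51 in CDK2 KO and 3.49 and 3.35 in R50. Only the treated arrays stood apart, by 0.65 ± 0.075 above WT (limma adjusted p = 0.00138), and a separate NDUFA12 probe gave 0.77 ± 0.048. NDUFB2 (0.54 ± 0.046), NDUFS4 (0.50 ± 0.049) and NDUFA6 (0.48 ± 0.066) were the next largest rises. The lower genes were NDUFB1 (−0.45 ± 0.0595), NDUFA7 (−0.39 ± 0.053), NDUFA5 (−0.32 ± 0.087), NDUFA3 (−0.28 ± 0.059) and NDUFB9 (−0.28 ± 0.052).

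NDUFS4, an accessory subunit whose loss causes complex I deficiency, separated CDK2 KO from R50. It stood at 4.35 and 4.31 in WT, 4.80 and 4.86 with NU6102, 3.96 and 3.92 in CDK2 KO and 4.45 and 4.46 in R50. The 4 groups did not overlap, with CDK2 KO lowest and WT+NU6102 highest. CDK2 KO was below WT by 0.39 ± 0.049 (limma adjusted p = 0.0033), R50 was above CDK2 KO by 0.51 ± 0.049 (adjusted p = 0.00118), and R50 against WT, at 0.12, was not called. NDUFS5 moved the other way, at 7.06 and 7.13 in WT, 7.36 and 7.37 in CDK2 KO and 6.94 and 6.99 in R50. Its fall in R50 against CDK2 KO was −0.40 ± 0.054. That was the largest of 9 falls among the 29 accessory subunits there (23.6% of all named genes), and NDUFS4 was the one rise (17.2%). Against WT, R50 had 5 of the 29 accessory subunits lower and none higher, against 15.4% and 12.2% of all named genes. The 5 were NDUFB8 (−0.26 ± 0.054), NDUFA3, NDUFC1, NDUFB6 and NDUFB2, the last 4 between −0.22 and −0.17. NDUFA3 was the one gene called lower than WT in all 3 other groups. In R50 its call was close to the threshold (limma adjusted p = 0.0485), as was that of NDUFB2 (limma adjusted p = 0.0473).

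**Figure D3:**
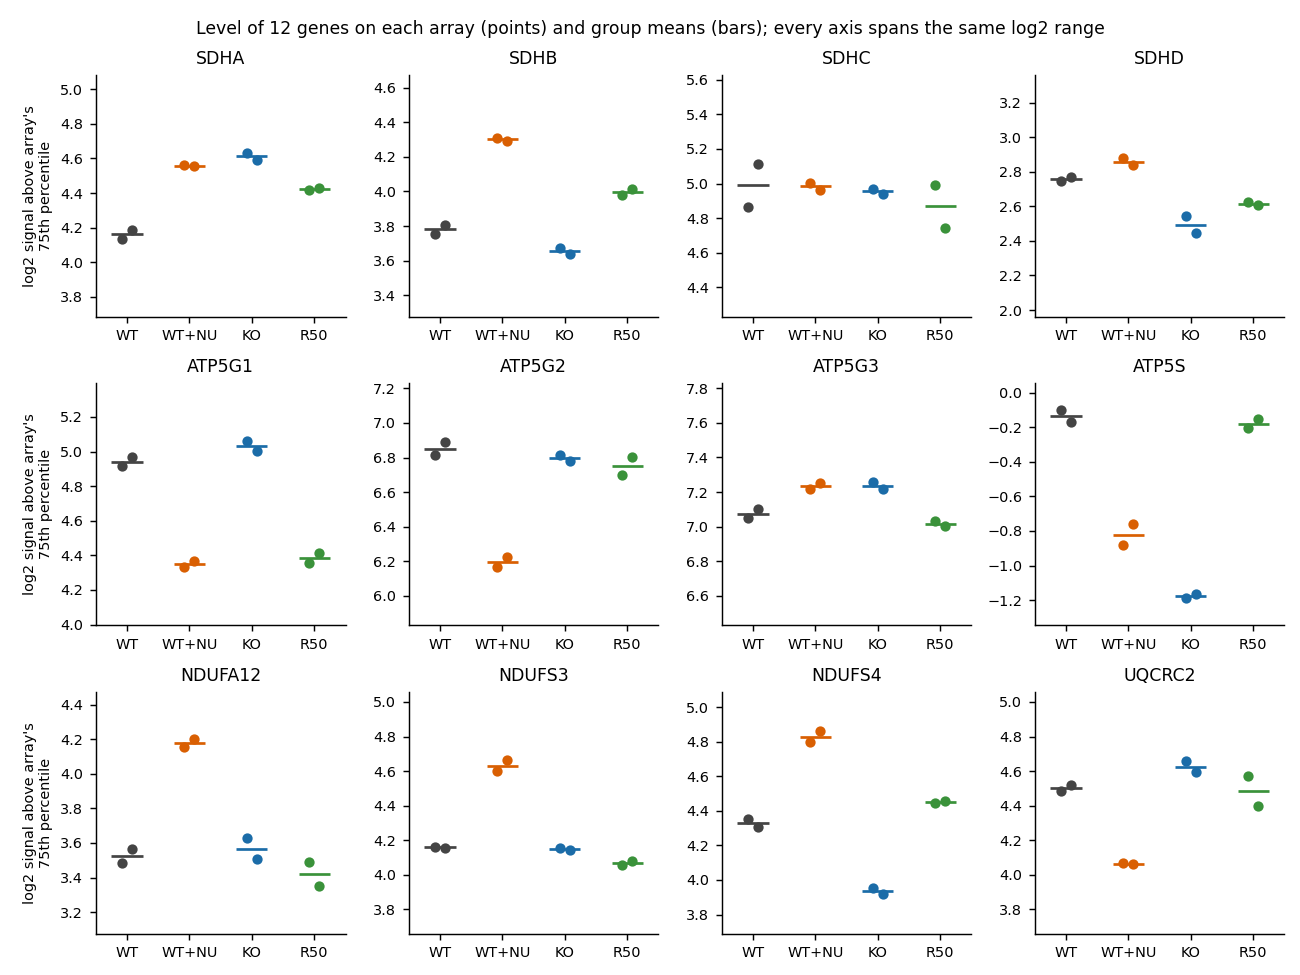
Level of 12 member genes on each array (points, 2 per group) with the group mean (bar), as log2 signal relative to the array's 75th percentile; the y axes span the same log2 range, and levels of different genes are not comparable. ATP5G1 was low with NU6102 and in R50, ATP5G2 with NU6102 alone, and NDUFS4 and ATP5S were lowest in CDK2 KO.

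Complex II, succinate dehydrogenase, is also an enzyme of the citrate cycle, and its 4 subunits are all encoded in the nucleus. SDHA, the flavoprotein that oxidises succinate, was higher than WT in each of the other groups. Its level was 4.14 and 4.19 in WT, 4.56 and 4.56 with NU6102, 4.63 and 4.59 in CDK2 KO and 4.42 and 4.43 in R50, so that no array of another group overlapped WT. The differences from WT were 0.40 ± 0.046 (limma adjusted p = 0.00144), 0.45 ± 0.046 (adjusted p = 0.00169) and 0.26 ± 0.046 (adjusted p = 0.0154). All 4 SDHA probes were called higher with NU6102 (0.40 to 0.48) and in CDK2 KO (0.32 to 0.45), and 2 of them in R50, where the others gave 0.05 and 0.12.

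SDHB, the iron-sulphur subunit, was at 3.76 and 3.81 in WT, 4.31 and 4.29 with NU6102, 3.67 and 3.64 in CDK2 KO and 3.98 and 4.01 in R50. It was thus highest with NU6102, by 0.52 ± 0.047 above WT (limma adjusted p = 0.00065), and R50 lay above both WT, by 0.21, and CDK2 KO, by 0.34. SDHD, one of the 2 membrane anchors, was lower in CDK2 KO than in WT with each of its 3 probes (−0.26, −0.26 and −0.23), and was not called in the other comparisons. The other anchor, SDHC, had 3 probes that did not move alike. The brightest was without a call, at −0.01 ± 0.114 with NU6102, with its 2 WT arrays at 4.87 and 5.12, while the dimmest was called higher by 0.32 ± 0.0545. The 4 genes of complex II therefore did not move as 1 unit in CDK2 KO, where SDHA rose, SDHD fell and SDHB and SDHC were not called.

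Complex III passes electrons from ubiquinol to cytochrome c. Its 2 core proteins moved apart after NU6102. UQCRC1 rose by 0.20 ± 0.056 and UQCRC2, at 4.49 and 4.52 in WT and 4.07 and 4.06 with NU6102, fell by 0.44 ± 0.071 (limma adjusted p = 0.00469). CDK2 KO (4.66 and 4.59) and R50 (4.57 and 4.40) did not differ from WT for UQCRC2 beyond the threshold. UQCRC1 was also higher in CDK2 KO than in WT, by 0.29 ± 0.056, and lower in R50 than in CDK2 KO, by 0.24. CYC1, the cytochrome c1 subunit, was the one complex III gene higher than WT in both lines, by 0.32 ± 0.070 in CDK2 KO and 0.27 ± 0.070 in R50, the latter close to the threshold (limma adjusted p = 0.0465). UQCRFS1, the Rieske iron-sulphur protein, was not called in any comparison. The small subunits UQCRQ (−0.28 ± 0.0595) and UQCR10 (−0.25 ± 0.049) were lower in R50 than in WT. In R50 against CDK2 KO, 4 of the 9 complex III genes (UQCR10, UQCRB, UQCRC1 and UQCRQ) were lower and none higher. Of all named genes, 23.6% were lower and 17.2% higher there.

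Complex IV, cytochrome c oxidase, had few calls. Of 13 tested genes, 2 were higher and 1 lower with NU6102, 1 higher in CDK2 KO against WT, 2 higher in R50 against WT and 1 higher in R50 against CDK2 KO, and none was lower in the last 3. Of all named genes, 28.9% were higher and 24.2% lower with NU6102, and 19.3% and 16.7% in CDK2 KO against WT. The shares were 12.2% and 15.4% in R50 against WT, and 17.2% and 23.6% in R50 against CDK2 KO. COX5A was at 6.21 and 6.26 in WT, 6.21 and 6.29 with NU6102, 6.26 and 6.19 in CDK2 KO and 6.21 and 6.19 in R50. Its 4 changes lay between −0.04 and 0.01 with an SE of 0.053. A dimmer COX5A probe was called higher with NU6102 by 0.28. COX5B ranged from −0.16 ± 0.061 with NU6102 to 0.00 and was not called.

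NDUFA4, a subunit once assigned to complex I, and COX8C had 3 calls each of the 7 in complex IV, and COX6A1 had the other. NDUFA4 was at 6.54 and 6.64 in WT, 6.85 and 6.95 with NU6102, 6.86 and 6.86 in CDK2 KO and 6.80 and 6.83 in R50. WT was lowest, with rises of 0.31 ± 0.059, 0.27 ± 0.059 and 0.22 ± 0.059, the last close to the threshold (limma adjusted p = 0.0484). Subunits that exist as a common and a tissue-restricted form were measured in pairs. COX6A1, the common form, rose by 0.18 ± 0.056 with NU6102, and COX6A2, the heart and muscle form, was well above background yet changed by no more than −0.55 ± 0.20 in any comparison, without a call. COX6B1 and COX6B2 were not called, and 21 to 23 bases of the brightest COX6B2 probe also occur in other probes. COX7A2 was not called, and its muscle form COX7A1 was not well above background on any array. COX8A was not called. COX8C, a form known mainly from testis, was near background: it was well above it on both arrays of WT, CDK2 KO and R50 and on neither WT+NU6102 array. WT was at least 1.94-fold higher than WT+NU6102 for COX8C (limma adjusted p = 0.00205), and R50 was higher than WT by 0.90 ± 0.142.

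ATP synthase has a catalytic F1 head and a membrane Fo part joined by stalks. In Fo turns a ring of c subunits, and 3 genes, ATP5G1, ATP5G2 and ATP5G3, encode the same mature c subunit with different import sequences. These 3 genes differed in their changes. ATP5G1 was at 4.91 and 4.97 in WT, 4.33 and 4.37 with NU6102, 5.06 and 5.00 in CDK2 KO and 4.35 and 4.41 in R50. The treated and the R50 arrays overlapped each other and lay below all WT and CDK2 KO arrays. The fall was 0.59 ± 0.052 with NU6102 (limma adjusted p = 0.000587), 0.56 ± 0.052 in R50 against WT (adjusted p = 0.00235) and 0.65 ± 0.052 in R50 against CDK2 KO (adjusted p = 0.000661), and CDK2 KO against WT, at 0.09, was not called.

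ATP5G2 was at 6.81 and 6.89 in WT, 6.17 and 6.23 with NU6102, 6.81 and 6.78 in CDK2 KO and 6.70 and 6.80 in R50. It fell with NU6102 alone, by 0.66 ± 0.060 (limma adjusted p = 0.000677), while R50 differed from WT by −0.10 and from CDK2 KO by −0.04, without a call. ATP5G3 rose with NU6102, from 7.05 and 7.10 to 7.22 and 7.25 (0.16 ± 0.048, limma adjusted p = 0.0401), and was lower in R50 (7.03 and 7.0) than in CDK2 KO (7.26 and 7.22) by 0.22. The arrays give no common scale for the 3 genes, so the sum of their transcripts was not estimated.

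The remaining standard ATP synthase genes that were called with NU6102 all rose. Of 5 F1 genes, 2 were higher and none lower. Of 10 genes of Fo and the stalk, the 3 c subunit genes among them, 4 were higher and 2 lower. Of all named genes, 28.9% were higher and 24.2% lower. Of the catalytic F1 genes, ATP5B, for the β subunit, rose by 0.30 ± 0.060 and ATP5E, by its brightest probe, by 0.25 ± 0.058. The dim ATP5E probe went the other way, at −0.65 ± 0.215, without a call (limma adjusted p = 0.0563). ATP5A1, for the α subunit, changed by 0.03 ± 0.055 and ATP5C1 by 0.16 ± 0.056 without a call. ATP5J (0.34), ATP5L (0.29) and ATP5J2 (0.24) of Fo and the stalk rose too. ATP5E was also higher in CDK2 KO than in WT, by 0.27, and lower in R50 than in CDK2 KO, by 0.32. In R50 against WT, ATP5G1 was the one ATP synthase gene called among 15, while 12.2% of all named genes were higher and 15.4% lower.

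ATP5S carries an ATP synthase name but is now DMAC2L and is not a standard subunit. It was at −0.10 and −0.17 in WT, −0.88 and −0.76 with NU6102, −1.19 and −1.17 in CDK2 KO and −0.21 and −0.15 in R50. R50 overlapped WT, and the other groups lay below. The change was −0.69 ± 0.061 with NU6102 (limma adjusted p = 0.00061), −1.04 ± 0.061 in CDK2 KO (adjusted p = 0.00028), −0.04 in R50 against WT and 0.998 ± 0.061 in R50 against CDK2 KO (adjusted p = 0.000279). Its other probe gave −0.57, −0.89, −0.05 and 0.84. Its changes in CDK2 KO against WT and in R50 against CDK2 KO were the largest of any member probe that was well above background on all 8 arrays. ATP5SL and ATP5L2 rose with NU6102, by 0.21 and 0.41, while the brightest COX7A2L probe and UQCRBP1, a pseudogene whose probe shares 31 bases with that of UQCRB, were not called.

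The NU6102 comparison and that of R50 with CDK2 KO use no array in common. Both come from the same model of all groups, however, so a probe has the same SE in both. A probe with a small SE is more readily called in both, so their calls are not independent. The calls are set against each other as a description. Of the 29 member genes higher with NU6102, 11 (37.9%) were lower in R50 than in CDK2 KO, and these are 52.4% of the 21 lower there (40.9% over all named genes). They were NDUFA6, NDUFB2, NDUFC1, NDUFC2, SDHA, UQCR10, UQCRC1, ATP5E, ATP5G3, ATP5J2 and ATP5SL. Over all named genes, 33.5% of those higher with NU6102 were lower in R50 against CDK2 KO. NDUFS4 and SDHB were higher in both, which is 6.9% of the members higher with NU6102 (14.7% over all genes) and 50% of those higher in R50 (24.7%). ATP5G1, NDUFB1 and NDUFB9 were lower in both, 30% of the members lower with NU6102 (22.2%) and 14.3% of those lower in R50 (22.7%). ATP5S and COX8C were lower with NU6102 and higher in R50, 20% of the former (31.1%) and 50% of the latter (43.7%).

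Among 19 member genes with several tested probes, opposite calls within a comparison occurred for NDUFC2 alone. In CDK2 KO its brighter probe was higher than WT by 0.18 ± 0.049 and its dimmer probe lower by 0.34 ± 0.078, and in R50 against CDK2 KO they moved by −0.26 and 0.44. Which transcripts each probe reports was not tested, and with the mean of both probes NDUFC2 was not called in either comparison, at −0.08 and 0.09. UQCR10 and UQCRB each have a dim probe that rose in CDK2 KO (0.72 and 0.51) where the brightest did not (0.03 and 0.11).

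The subunits that mitochondrial DNA encodes are partners of these genes in complexes I, III and IV and ATP synthase, and all 13 genes were tested. In CDK2 KO against WT, 4 of 13 were called higher (ATP6, COX2, COX3 and ND6) and none lower, against 19.3% and 16.7% of all named genes, with a median change of 0.45 and changes between 0.27 and 0.66, against a median of 0.03 for the 82 nuclear members. With NU6102, ND1, ND2 and ND6 were higher (28.9% of all named genes), and in R50 against WT no gene was called. In R50 against CDK2 KO, ND1 and ND6 were lower (23.6% of all named genes). All 13 changes there lay between −0.44 and −0.04, with a median of −0.29, against −0.10 for the 82 nuclear members. ND6, the one subunit gene on the light strand, was at 2.28 and 2.30 in WT, 2.63 and 2.66 with NU6102, 2.88 and 2.93 in CDK2 KO and 2.45 and 2.47 in R50, and its groups did not overlap. For the other genes the WT arrays did not match: all 13 were lower on WT replicate 1 than on WT replicate 2, by a median of 0.38. The CDK2 KO arrays differed likewise, with 12 of 13 genes lower on replicate 1, by a median of 0.27. ATP6 was at 5.47 and 5.89 in WT and at 6.18 and 6.50 in CDK2 KO. Without WT replicate 1, 1 of the 13 genes was called higher in CDK2 KO, with a median change of 0.22, and 1 with NU6102, with a median that turned from 0.17 to −0.05. The part of these replicate gaps in the result was not tested beyond that.

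**Figure D4:**
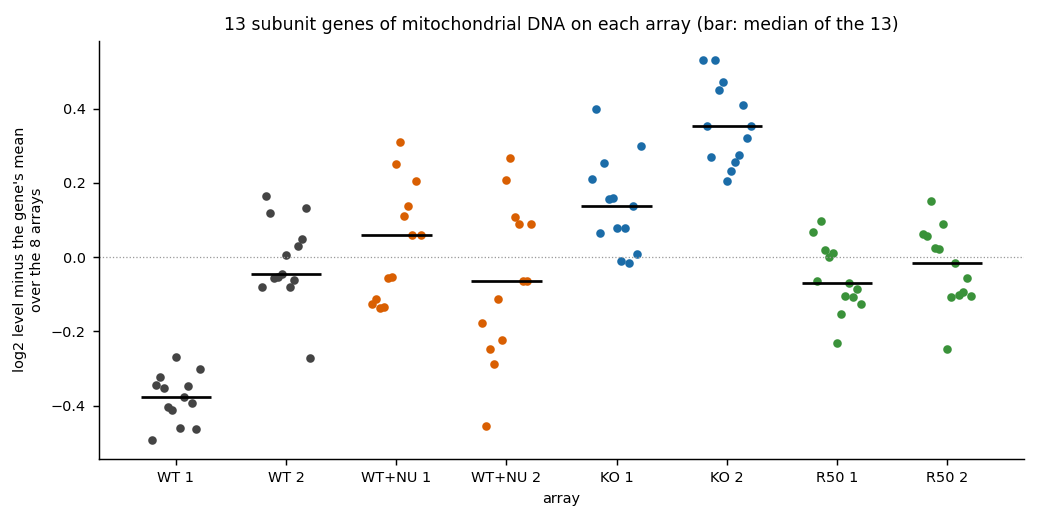
Log2 level of the 13 subunit genes of mitochondrial DNA on each of the 8 arrays, after subtracting each gene's mean over the arrays (points are genes, bars the median of the 13). The median of WT replicate 1 is the lowest, and the medians of both CDK2 KO arrays are above those of every other array.

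Assembly factors insert subunits and cofactors without staying in the complexes. Of 45 tested, 25 were higher and 10 lower with NU6102 (28.9% and 24.2% of all named genes). In CDK2 KO against WT, 9 were higher and 9 lower (19.3% and 16.7% of all named genes). The counts were 1 and 10 in R50 against WT (12.2% and 15.4%) and 5 and 13 in R50 against CDK2 KO (17.2% and 23.6%). The median changes of the assembly factors were 0.22, 0.00, −0.10 and −0.11. COX19, of the copper route to complex IV, rose by 1.4 ± 0.094 with NU6102 and was higher than WT in CDK2 KO (0.63) and R50 (0.53) too. BCS1L, which completes complex III, rose by 0.87 ± 0.053 with NU6102. ATPAF1, a factor for F1 with a dim probe (levels of −3.4 and −3.2 in WT), fell by 1.04 ± 0.190. NDUFAF3, for complex I, was lower with NU6102 (−0.40) and in CDK2 KO (−0.58) and was at the level of WT in R50. Of 7 further subunits and carriers whose names fall outside the rule, 4 were higher and none lower with NU6102 (28.9% and 24.2% of all named genes). Among the 4 were CYCS, which is cytochrome c itself (0.70 ± 0.051), and C14orf2, a small ATP synthase subunit (0.66 ± 0.083). C14orf2 was also higher in CDK2 KO than in WT (0.73), the one call there (19.3% and 16.7%). None of the 7 was called in R50 against WT (12.2% and 15.4%). In R50 against CDK2 KO, 1 was lower and none higher (23.6% and 17.2%). Neither list was refitted under quantile normalization.

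**Figure D5:**
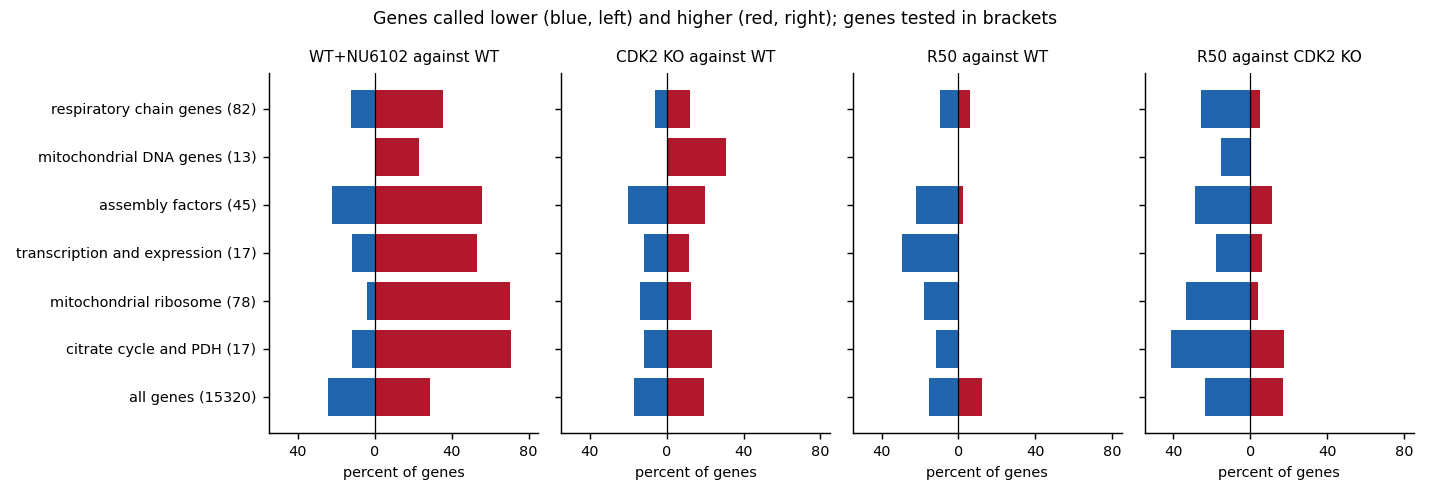
Percent of tested genes called lower (blue, to the left) and higher (red, to the right) in each comparison, for the respiratory chain genes, related mitochondrial lists and all named genes, with the number tested in brackets. With NU6102, 29 of 82 respiratory chain genes were higher, against 25 of 45 assembly factors and 4429 of 15320 genes.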

How the data were processed

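The authors scanned 8 one-colour Agilent arrays. Per spot, the authors' deposited files give an intensity after background subtraction by Agilent Feature Extraction 11.5.1.1, per the labels, without normalization between arrays. For 28719 probes the authors' own log2 values, deposited beside these, equal the log2 scanner signal less 1 constant per array, centred on each probe's median, and served as an alternative. Control spots and outlier spots were left out, the intensity was taken to log2, each array's 75th percentile over non-control spots was subtracted and spots of a probe were averaged. The filter kept 28677 of 50599 probes. The number of arrays limits the precision.

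Limma 3.58.1 in R 4.3.3 fitted all 4 groups in 1 model with moderated (empirical Bayes) two-sided tests, with Benjamini-Hochberg adjustment over all tested probes. The script was tested on simulated data. The replicate numbers were checked: deviations of same-numbered arrays correlated between −0.03 and 0.05 over all tested probes. Same-numbered arrays thus shared no broad shift, but whether they were prepared in pairs cannot be told from this. The arrays were not paired in the main model, and a replicate block was an alternative.

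Members and lists were chosen with earlier results of these data known. Genes were named by rule: per comparison the 4 largest rises and 4 largest falls called and well above background on all 4 arrays compared, a fixed set (core, complex II, paralogous and catalytic subunits) and genes with opposite probes. Other members were named as completing a count of calls, and some genes of the other lists were picked outside this rule. Both were named after their values were seen. For COX8C the bound sets the WT mean against, per array, the higher of the probe and the lowest signal well above background. Shared probe bases were searched from 20 bases up. Alternatives were normexp (offset 50), quantile normalization, median centring, no filter and a filter on all 8 arrays, the authors' values, a trended prior, a replicate block, arrays of 1 slide, a 2-fold minimum, probe means, the methods' ANOVA and t-test, and leaving out each array. Python 3.11.15 with matplotlib 3.10.9, pandas 2.3.3 and numpy 2.4.6 drew the figures. Protein sequences were not used here, and values of 1 member gene are not reported here.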

Additional observations from a re-analysis of the deposited data

How the results depend on the processing

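The 10 member probes that differed among the 4 groups became 20 with normexp background correction, 48 with a trended prior, 5 by the methods' ANOVA, and 0 without the filter on dim probes, with a replicate block and without any 1 array (0 to 0). Counts higher and lower are given in this order. With quantile normalization NU6102 gave 24 and 19 (40 and 11 as reported), R50 against WT had 6 lower (10) and R50 against CDK2 KO 17 lower (27), and the median changes were 0.0344, −0.022 and −0.0308. With each array centred on its median, the median with NU6102 was 0.1562. Without the filter, 21 were higher with NU6102, 4 and 3 differed in CDK2 KO against WT (15 and 10), 1 and 1 in R50 against WT (6 and 10), and 4 were lower in R50 against CDK2 KO. A trended prior gave 16 lower in CDK2 KO and 21 lower in R50 against WT, and normexp 19 lower in the latter. On 1 slide 26 were higher with NU6102 and 10 lower in R50 against CDK2 KO. A fitted log2 change of at least 1 left 0 and 1 with NU6102 (COX8C, with a bound of 1.94-fold), 0 and 1 in CDK2 KO, 0 and 0 in R50 against WT, and 0 and 1 in R50 against CDK2 KO. The methods' t-test after Benjamini-Hochberg gave 14 and 6, 1 and 2, 0 and 0, and 2 and 6, and before it 18 lower in R50 against WT. The causes were not tested.

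Leaving out 1 array gave 18 to 34 higher and 9 to 12 lower with NU6102, 3 to 14 and 3 to 10 in CDK2 KO against WT, 1 to 3 and 1 to 8 in R50 against WT, and 5 to 6 and 3 to 21 in R50 against CDK2 KO. In CDK2 KO or R50 against WT, leaving out any 1 of the 4 arrays compared cut the count of lower probes by over 1.5 times. The medians ran from 0.0949 to 0.1463, 0.0029 to 0.0712, −0.0857 to −0.0403 and −0.1055 to −0.0971. With the replicate block, the pairwise counts were 36 and 11, 13 and 10, 5 and 7, and 6 and 19, each within 1.5 times of those reported. Of 984 refits of 56 called values of named genes, 769 kept direction and call, 213 lost the call and 2 reversed, both of NDUFC2 by the mean of its probes (−0.0762 in CDK2 KO and 0.09 in R50 against CDK2 KO). Depth is not the limit here: 105 of the tested member probes had signal well above background on every array, and 2 arrays per group limit the precision.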

Other observations

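Other mitochondrial gene groups that the text above does not describe held many genes called higher after NU6102. The lists in this section were not refitted under quantile normalization or without single arrays. How far their counts depend on scaling was not tested. Of 78 tested genes named for mitochondrial ribosomal proteins, which build the ribosome that translates mitochondrial DNA and which by name include a pseudogene, MRPL42P5, and an antisense RNA, MRPL23-AS1, 55 were higher and 3 lower with NU6102, against 28.9% and 24.2% of all 15320 named genes, with a median log2 change of 0.35. MRPL39 (0.99 ± 0.056), MRPL35 (0.87 ± 0.076) and MRPS11 (0.87 ± 0.059) rose most. In CDK2 KO against WT 10 were higher and 11 lower (19.3% and 16.7% of all genes), in R50 against WT 0 and 14 (12.2% and 15.4%), and in R50 against CDK2 KO 3 and 26 (17.2% and 23.6%). Of 17 genes of the citrate cycle and pyruvate dehydrogenase, 12 were higher and 2 lower with NU6102, beside the same shares of all genes, with a median of 0.32. IDH3A (0.80 ± 0.048) and IDH3B (0.77 ± 0.069), subunits of the NAD-dependent isocitrate dehydrogenase, led the rises. PDHB, of pyruvate dehydrogenase, and SUCLG2, of succinyl-CoA ligase, were the 2 lower genes (−0.43 and −0.33), and both were higher in CDK2 KO than in WT (0.70 and 0.41). Whether any of these lists differs from the respiratory chain genes was not tested.

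Of 17 regulators of respiratory and mitochondrial gene expression, 9 were higher and 2 lower with NU6102, against 28.9% and 24.2% of all genes. POLG, the polymerase that copies mitochondrial DNA, rose by 0.94 ± 0.046, POLRMT, which transcribes it, by 0.78 ± 0.057, and LRPPRC, which stabilises mitochondrial mRNA, by 0.62 ± 0.050. The 2 lower genes were GABPA (−0.62 ± 0.063) and GABPB1 (−0.40 ± 0.047), the subunits of an ETS-family factor, and GABPB1 was also lower than WT in CDK2 KO (−0.63) and R50 (−0.30). NRF1 was not called in any comparison, at −0.16 ± 0.107 with NU6102. TFAM (−0.31) and YY1 (−0.28) were lower in R50 than in WT and not called with NU6102. Transcript levels do not report the activity of these factors.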
